A study of Mus musculus with 6 samples.

Results

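Glutathione, peroxide-removing and NRF2-linked antioxidant genes were followed in mouse peritoneal macrophages, phagocytes of the abdominal cavity, exposed to a ligand of TLR3 or of TLR2. The members were picked by their gene symbols, with earlier results of these data known: the numbered Gst (alpha, kappa, mu, omega, pi and theta), Mgst, Gpx and Prdx families, with Slc7a11, Gclc, Gclm, Gss, Gsr, Nqo1, Hmox1, Txnrd1, Srxn1, Nfe2l2, Keap1, Cat and Sod1. This gave 47 genes on 51 probes, of 19935 genes measured by probes with a single symbol. All cells came from C57BL/6 mice, with no genetic change named. They were given poly I:C, an artificial RNA duplex and ligand of TLR3, at 2 ug/mL for 24 h (2 arrays), or PAM, a lipopeptide that activates TLR2, at 1 ug/mL for 24 h (2 arrays), or were left untreated as controls (2 arrays). The labels call the compound of PAM array 1 PAMCSK3 and that of PAM array 2 PAMCSK4, give no culture time for the controls, and do not say whether the arrays of a group came from separate mice or cultures, so the p-values here reflect array-to-array spread, which may be technical.

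Each deposited value is a log value from which the median of its probe over the 6 arrays had been subtracted. A value of 0 is therefore the middle of that gene's own range, and levels of different genes cannot be compared. Differences are log2 differences between group means ± SE (n = 2 arrays per group), tested with limma over all 19935 genes and called at an adjusted p under 0.05. The log base is not stated and was assumed to be 2 for all log2 values and folds. From the numerical steps of the values, genes with a level of at least 8 on every array before the subtraction could be told from dimmer ones. This held for 21 of the 47 members, against 29.2% of all genes. Of 10 macrophage markers 8 lay that high (all but Gata6 and Timd4), as did 5 of 11 mesothelial and fibroblast markers (Col1a1, Col1a2, Col3a1, Dcn and Pdgfra). Of the other marker lists 1 of 10 neutrophil, 1 of 6 B cell, 1 of 8 T and NK cell, 0 of 9 mast cell and eosinophil and 0 of 4 erythroid and platelet genes did.

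Glutathione is a cysteine-containing tripeptide that cells use to reduce peroxides and to tag reactive compounds. Cystine for it enters through Slc7a11, the glutamate-cysteine ligase subunits Gclc and Gclm and the synthetase Gss build it, and Gsr restores its oxidized form with NADPH. NRF2, the product of Nfe2l2, switches on many of these genes; KEAP1 marks it for degradation until oxidants or electrophiles modify KEAP1. In macrophages the same enzymes limit damage from the superoxide, peroxide and nitric oxide that the activated cells produce.

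More members fell than rose with poly I:C, and more rose than fell with PAM. With poly I:C 22 members fell and 6 rose, with a median difference of -0.18; over all genes 18.2% fell and 12.1% rose, with a median of 0.01. With PAM 18 members rose and 6 fell, with a median of 0.08; over all genes 11.0% rose and 14.0% fell, with a median of 0.00. Compared directly, 24 members were lower under poly I:C than under PAM and 5 were higher, with a median of -0.26, where 15.8% of all genes were lower and 12.9% higher. Calls in either direction made up 59.6%, 51.1% and 61.7% of the members in these 3 comparisons, against 30.4%, 25.0% and 28.7% of all genes. Among the 5813 genes at 8 or above on all arrays those shares were 55.8%, 46.8% and 54.5%, and among the 21 members at that level 85.7%, 57.1% and 90.5%. Among the 26 members not at that level on all arrays they were 38.5%, 46.2% and 38.5%. The 2 comparisons with control share the control arrays, so their values are given side by side only.

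**Figure D1:**
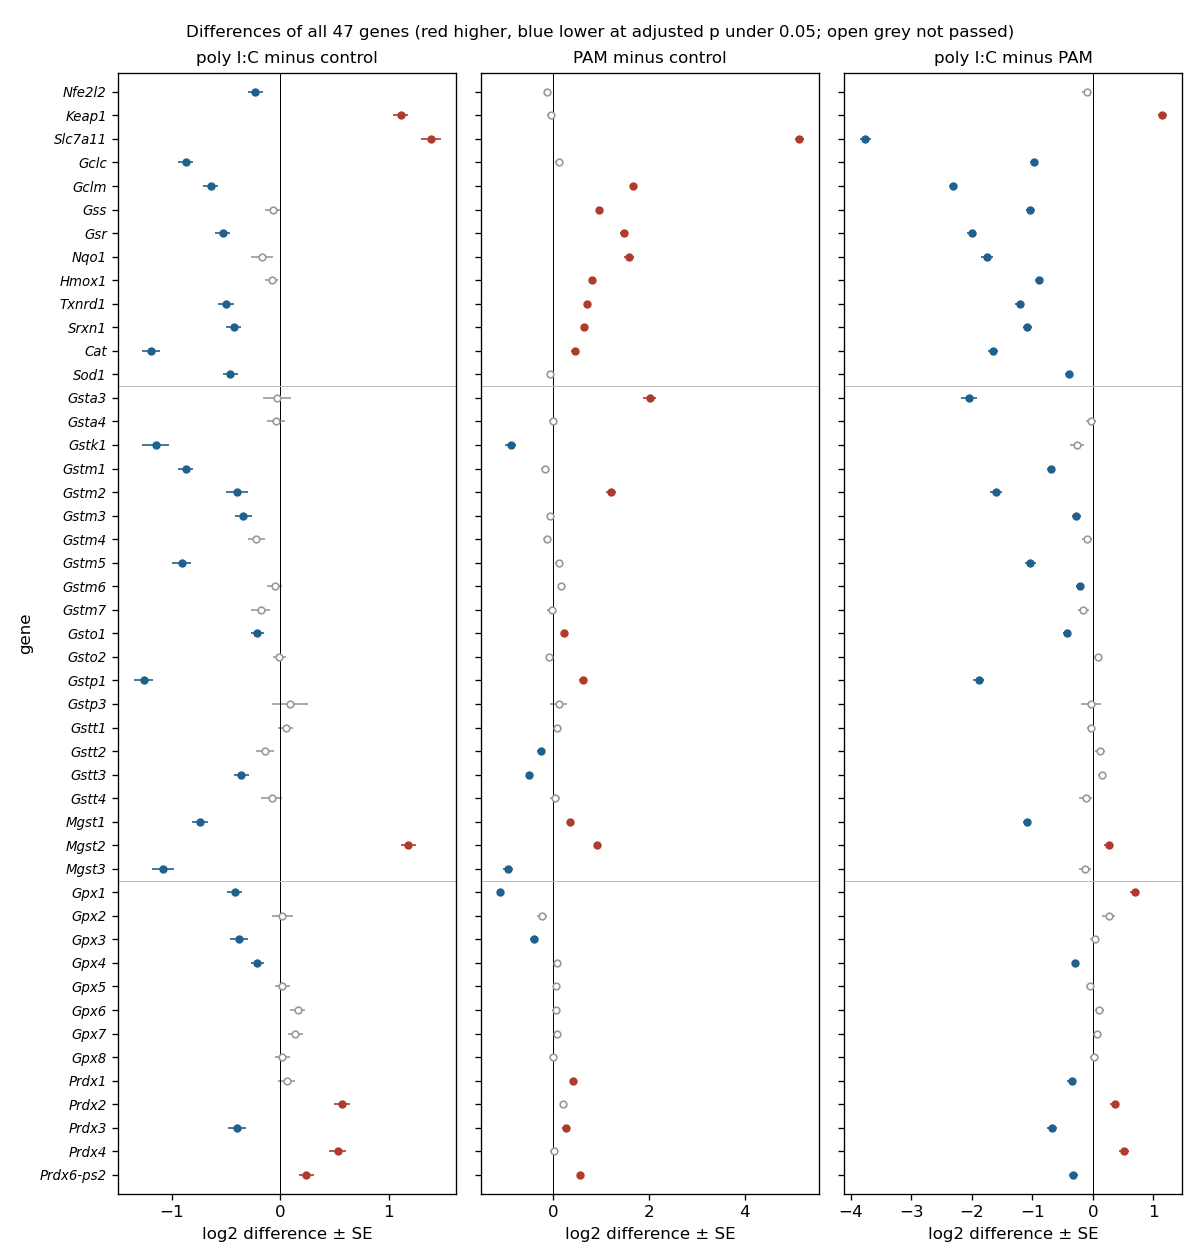
Log2 differences ± SE (x axes, each panel with its own range) of all 47 genes (rows) for poly I:C minus control, PAM minus control and poly I:C minus PAM, n = 2 arrays per group; red marks higher, blue lower at an adjusted p under 0.05 and open grey not passed. With poly I:C 22 genes lie left of 0 in blue, whereas with PAM 18 lie right of 0 in red, Slc7a11 furthest at 5.14.

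Of the NRF2 switch, the repressor gene Keap1 rose with poly I:C, while the activator gene Nfe2l2 showed a small fall near the threshold. Keap1 had values of 1.14 and 1.07 on the poly I:C arrays, -0.04 and -0.05 on the PAM arrays and 0.04 and -0.04 on the control arrays. Both poly I:C arrays stood above the other four, which lay within 0.1 of 0. Keap1 rose 2.15-fold with poly I:C (1.11 ± 0.07, adjusted p = 2.48e-06) and was 1.15 ± 0.07 higher under poly I:C than under PAM (adjusted p = 1.7e-06). Its difference with PAM was -0.05 ± 0.07 (adjusted p = 0.733). Nfe2l2, whose protein is controlled largely by its stability, had values of -0.14 and -0.05 with poly I:C, -0.02 and 0.02 with PAM and 0.09 and 0.17 in controls. It fell slightly with poly I:C (-0.23 ± 0.07, adjusted p = 0.033). The difference was -0.19 without control replicate 2 (adjusted p = 0.133), -0.18 without poly I:C replicate 1 (adjusted p = 0.183), -0.27 without poly I:C replicate 2 (adjusted p = 0.0597) and -0.23 without PAM replicate 1 or 2 (adjusted p = 0.0577 each), so the call ended in these fits while the size moved little.

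Cystine uptake, glutathione synthesis and recycling held the largest difference of any member, that of Slc7a11, and 4 of the 5 genes rose with PAM while 3 fell with poly I:C. The called share was 80% with each ligand, against 30.4% of all genes with poly I:C and 25.0% with PAM. Slc7a11, the cystine-glutamate exchanger, had values of -0.15 and 0.15 on the poly I:C arrays, 3.75 and 3.76 on the PAM arrays and -1.38 and -1.39 on the control arrays. The 3 groups did not overlap: PAM arrays were highest and controls lowest. Slc7a11 rose 2.61-fold with poly I:C (1.39 ± 0.09, adjusted p = 4.85e-06) and 35.3-fold with PAM (5.14 ± 0.09, adjusted p = 3.07e-09), and was 13.5-fold lower under poly I:C than under PAM (adjusted p = 1e-08). It was the only member of this group of 5 that rose with poly I:C. Slc7a11 did not reach 8 on all arrays.

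Gclm, the modifier subunit of glutamate-cysteine ligase, had values of -0.65 and -0.63 with poly I:C, 1.65 and 1.68 with PAM and -0.07 and 0.07 in controls. Controls lay between the ligands: Gclm fell 1.56-fold with poly I:C (-0.64 ± 0.07, adjusted p = 0.00012) and rose 3.17-fold with PAM (1.67 ± 0.07, adjusted p = 3.12e-07). The catalytic subunit gene, Gclc, had values of -0.84 and -0.90 with poly I:C, 0.07 and 0.15 with PAM and -0.01 and 0.01 in controls. It fell with poly I:C (-0.87 ± 0.07, adjusted p = 1.14e-05) and differed by 0.11 ± 0.07 with PAM without passing (adjusted p = 0.324), so the subunits parted only in the PAM calls; the difference between the subunits was not tested.

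Gss, which adds glycine in the last step, stood at -0.08 and -0.06 with poly I:C, 0.91 and 1.01 with PAM and -0.02 and 0.02 in controls. Only the PAM arrays stood apart, with a rise of 0.96 ± 0.07 (1.95-fold, adjusted p = 7.38e-06), while the poly I:C difference was -0.07 ± 0.07 (adjusted p = 0.527). Unlike Gclm, Gclc and Gsr, Gss did not reach 8 on all arrays. Gsr, glutathione reductase, stood at -0.57 and -0.50 with poly I:C, 1.46 and 1.49 with PAM and 0.06 and -0.06 in controls. Like Gclm it fell with poly I:C (-0.53 ± 0.07, adjusted p = 0.000375) and rose with PAM (2.78-fold, adjusted p = 6.2e-07). Compared directly, all 5 genes of uptake, synthesis and recycling were lower under poly I:C than under PAM, by between 0.97 (Gclc) and 3.76 (Slc7a11) on the log2 scale.

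**Figure D2:**
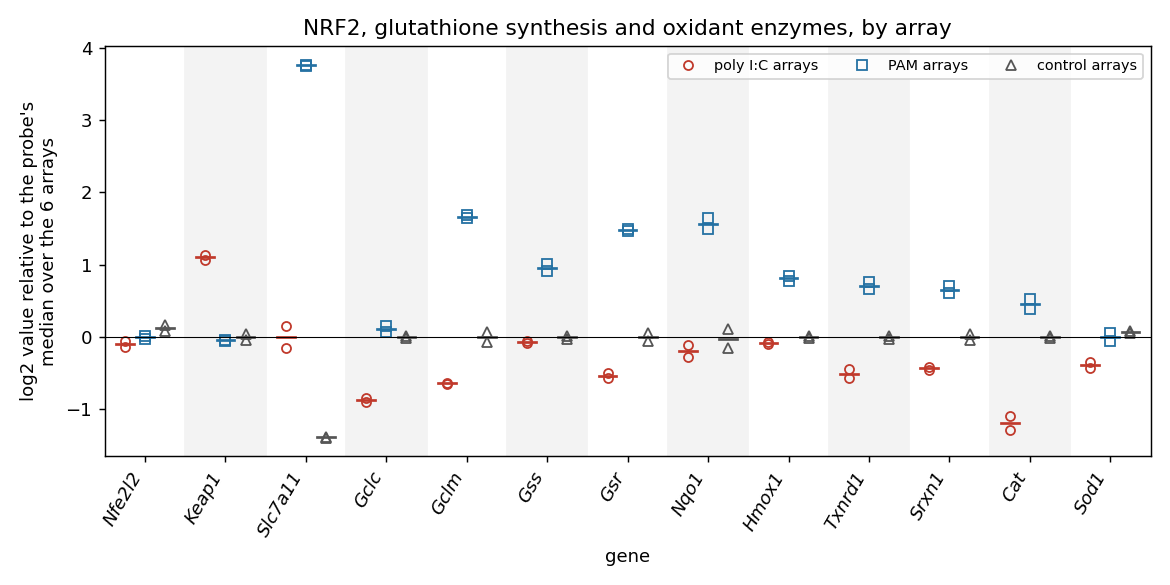
Log2 value relative to the probe's median over the 6 arrays (y axis) for 13 genes (x axis), with 1 point per array and a bar at each group mean, poly I:C left, PAM in the middle and control right within each gene. Slc7a11 stands at 3.75 and 3.76 on the PAM arrays, Keap1 at 1.14 and 1.07 on the poly I:C arrays, and Cat, Gclc and Gclm lie below the controls on both poly I:C arrays.

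The classical NRF2-induced enzymes rose with PAM, all 4 of them, and with poly I:C 2 fell and 0 rose by limma (0 also at an unadjusted p under 0.05). Called shares were 50% with poly I:C and 100% with PAM, against 30.4% and 25.0% of all genes. Of the 4 only Nqo1 did not reach 8 on all arrays. Nqo1, a quinone reductase, had values of -0.11 and -0.27 on the poly I:C arrays, 1.49 and 1.64 on the PAM arrays and -0.15 and 0.11 on the control arrays. It rose 3-fold with PAM (1.58 ± 0.10, adjusted p = 4.35e-06), and its poly I:C and control arrays overlapped (-0.17 ± 0.10, adjusted p = 0.284; without control replicate 1 it passed, at -0.30 and adjusted p = 0.0486). Hmox1, which breaks down haem, had values of -0.07 and -0.09 with poly I:C, 0.78 and 0.84 with PAM and -0.01 and 0.01 in controls. PAM arrays were the high ones again (0.81 ± 0.06, adjusted p = 1.48e-05), and the poly I:C difference of -0.08 ± 0.06 did not pass (adjusted p = 0.406).

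Txnrd1, cytosolic thioredoxin reductase, had values of -0.57 and -0.44 with poly I:C, 0.66 and 0.76 with PAM and -0.02 and 0.02 in controls. Srxn1, which repairs overoxidized peroxiredoxins, had -0.41 and -0.45 with poly I:C, 0.61 and 0.70 with PAM and 0.04 and -0.04 in controls. In both genes controls lay between the ligands without overlap. Txnrd1 fell with poly I:C (-0.50 ± 0.07, adjusted p = 0.000668) and rose with PAM (0.71 ± 0.07, adjusted p = 9.58e-05). Srxn1 likewise fell with poly I:C (-0.43 ± 0.07, adjusted p = 0.00113) and rose with PAM (0.65 ± 0.07, adjusted p = 9.6e-05).

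Cat and Sod1 fell with poly I:C, whereas Sod2, a superoxide dismutase gene outside the members, rose (1.95). Cat, which splits hydrogen peroxide, stood at -1.09 and -1.29 with poly I:C, 0.39 and 0.52 with PAM and -0.01 and 0.01 in controls. It fell 2.28-fold with poly I:C (-1.19 ± 0.08, adjusted p = 7.05e-06), rose with PAM (0.46 ± 0.08, adjusted p = 0.00353), and was 3.13-fold lower under poly I:C than under PAM (adjusted p = 7.6e-07). Sod1, the cytosolic copper-zinc dismutase, stood at -0.35 and -0.43 with poly I:C, -0.05 and 0.05 with PAM and 0.06 and 0.08 in controls. Both poly I:C arrays were lowest (-0.46 ± 0.07, adjusted p = 0.000864), and the PAM difference of -0.07 ± 0.07 did not pass (adjusted p = 0.606).

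NRF2 and its small MAF partners bind antioxidant response elements, whose core is often written TGACNNNGC, so promoter windows were searched for these letters on both strands. RefSeq windows from 250 bases before to 50 bases after a gene's start (GRCm38.p6) were matched by symbol for 41 of the 47 members. The letters occurred in a window of 10 of these members (24.4%), against 15.2% of the 15612 measured genes with a window and 12.4% of all 32851 windows. The 10 were Gclm, Gsta3, Gstm5, Gstm7, Mgst1, Nfe2l2, Prdx1, Sod1, Srxn1 and Txnrd1. No match was present in these windows of Slc7a11, Nqo1, Gss, Cat or Keap1, which says only that the letters are not in them. The 6 members without a window, Gclc, Gsr, Hmox1, Gsta4, Gstt2 and Prdx6-ps2, were not searched. A second form of the element, TGANTCAGC, chosen after the windows were read, occurred in 3 members, Srxn1, Prdx1 and Gstp1 (7.32%), against 1.36% of measured genes with a window. The AP-1 letters TGACTCA occur in 5.2% of windows. Of the TGACNNNGC matches only that of Prdx1, which reads GCTGAGTCA on the gene's strand, also holds them, and the TGANTCAGC matches, which read TGAGTCAGC in Srxn1 and Gstp1, hold them on the other strand. A match is a description of sequence and not a bound site.

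The windows of Gclm, Mgst1, Srxn1 and Txnrd1 are shown whole, because these genes carry a TGACNNNGC match, fell with poly I:C and rose with PAM. Gstp1, which carries only TGANTCAGC, had the same calls and is not shown. Each runs 5′ to 3′ on the gene's strand with matches in capitals. In Srxn1 the first capitals are TGANTCAGC, 45 bases before the start, and the second TGACNNNGC on the other strand. The windows are chr3:122245307-122245606 (Gclm, + strand), chr6:138140277-138140576 (Mgst1, +, 1 of its 2 windows), chr2:152105274-152105573 (Srxn1, +) and chr10:82858956-82859255 (Txnrd1, +, 1 of its 3 windows).
Gclm: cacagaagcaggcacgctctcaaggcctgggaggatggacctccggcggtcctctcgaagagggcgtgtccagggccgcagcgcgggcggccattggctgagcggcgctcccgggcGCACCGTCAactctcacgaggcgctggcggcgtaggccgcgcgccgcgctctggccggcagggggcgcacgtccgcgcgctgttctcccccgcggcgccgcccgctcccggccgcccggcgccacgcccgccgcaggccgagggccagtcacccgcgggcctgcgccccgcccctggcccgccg
Mgst1: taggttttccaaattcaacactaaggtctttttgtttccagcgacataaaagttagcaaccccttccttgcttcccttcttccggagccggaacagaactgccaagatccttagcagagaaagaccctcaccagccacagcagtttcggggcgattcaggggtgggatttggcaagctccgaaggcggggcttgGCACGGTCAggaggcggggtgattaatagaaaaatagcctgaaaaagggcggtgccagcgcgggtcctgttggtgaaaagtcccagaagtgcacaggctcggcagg
Srxn1: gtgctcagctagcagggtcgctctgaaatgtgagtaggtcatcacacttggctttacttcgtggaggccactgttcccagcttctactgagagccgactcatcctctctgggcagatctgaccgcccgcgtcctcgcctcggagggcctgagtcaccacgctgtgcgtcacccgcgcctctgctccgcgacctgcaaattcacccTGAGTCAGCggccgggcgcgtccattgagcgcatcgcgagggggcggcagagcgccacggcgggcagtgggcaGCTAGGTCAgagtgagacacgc
Txnrd1: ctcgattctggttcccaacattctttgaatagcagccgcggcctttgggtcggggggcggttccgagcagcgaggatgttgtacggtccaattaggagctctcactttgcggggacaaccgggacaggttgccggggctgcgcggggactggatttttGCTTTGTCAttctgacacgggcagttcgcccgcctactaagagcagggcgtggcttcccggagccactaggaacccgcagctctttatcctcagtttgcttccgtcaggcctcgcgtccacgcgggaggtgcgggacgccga

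Other members with a TGACNNNGC match and values in every array in the text are shown with up to 30 bases on either side of it. This allows comparison of the matched letters. They are chr1:21240434-21240502 (Gsta3, +), chr3:107895782-107895850 (Gstm5, +), chr2:75704865-75704913 (Nfe2l2, - strand) and chr16:90220676-90220744 (Sod1, +).
Gsta3: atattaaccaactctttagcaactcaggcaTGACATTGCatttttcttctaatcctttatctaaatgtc
Gstm5: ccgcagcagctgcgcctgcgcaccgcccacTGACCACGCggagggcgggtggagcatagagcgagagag
Nfe2l2: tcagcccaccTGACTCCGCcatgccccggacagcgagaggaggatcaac
Sod1: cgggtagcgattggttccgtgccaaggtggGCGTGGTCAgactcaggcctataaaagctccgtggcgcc
Of these 4, Gsta3 rose with PAM, and Gstm5, Nfe2l2 and Sod1 fell with poly I:C without passing with PAM.

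Glutathione S-transferases, which attach glutathione to reactive compounds, changed in 1 direction with poly I:C and in both with PAM. Of the 18 cytosolic and mitochondrial genes 8 fell and 0 rose with poly I:C by limma (0 also at an unadjusted p under 0.05, median -0.20), whereas 4 rose and 3 fell with PAM (median 0.01). Called shares were 44.4% and 38.9%, against 30.4% and 25.0% of all genes. Gstp1, a pi-class enzyme, had values of -1.15 and -1.37 with poly I:C, 0.69 and 0.55 with PAM and 0.07 and -0.07 in controls. It had the largest decrease of any member with poly I:C (2.40-fold, -1.26 ± 0.09, adjusted p = 9.55e-06), and it rose with PAM (0.62 ± 0.09, adjusted p = 0.00106). A pair of probes shared by Gstp1 and Gstp2, not counted among the members, gave -0.73 and -0.74 with poly I:C and 0.74 and 0.75 with PAM.

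Gsta3, an alpha-class enzyme, had values of -0.22 and -0.03 with poly I:C, 1.73 and 2.10 with PAM and -0.21 and 0.03 in controls. Its poly I:C and control arrays overlapped, while it rose 4.02-fold with PAM (2.01 ± 0.13, adjusted p = 4.85e-06). Gsta3 did not reach 8 on all arrays. Probes shared by Gsta1, Gsta2 and predicted genes, 4 in number and also not counted, differed by between 0.57 and 0.92 with PAM and by between -0.04 and -0.02 with poly I:C. Members of these families are similar in sequence, and how far each probe reads its paralogs is not given in the sources used here.

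The mu-class genes, 7 neighbours on chromosome 3, included 4 that fell with poly I:C and 1 that rose with PAM. Those calls were 57.1% and 14.3% of the class, against 30.4% and 25.0% of all genes. Gstm1 stood at -0.64 and -0.74 with poly I:C, -0.03 and 0.03 with PAM and 0.14 and 0.22 in controls, and fell with poly I:C (-0.87 ± 0.07, adjusted p = 1.66e-05). Gstm5 stood at -0.86 and -0.95 with poly I:C, 0.25 and 0.01 with PAM and -0.01 and 0.02 in controls, and fell too (-0.91 ± 0.09, adjusted p = 4.73e-05). The PAM differences of these mu-class genes, -0.18 ± 0.07 and 0.12 ± 0.09, did not pass (adjusted p = 0.108 and 0.407), although Gstm1 passed as lower with PAM when only genes at 8 or above were tested (adjusted p = 0.023). Gstm2 was the one with opposite calls, at -0.47 and -0.34 with poly I:C, 1.10 and 1.30 with PAM and 0.13 and -0.13 in controls. It rose 2.30-fold with PAM (1.20 ± 0.10, adjusted p = 3.03e-05) and fell with poly I:C (-0.40 ± 0.10, adjusted p = 0.0169). The fall ended without control replicate 1 (-0.27, adjusted p = 0.07) or poly I:C replicate 1 (-0.34, adjusted p = 0.128). Gstm3 fell by 0.34 with poly I:C, but only 1 of its 2 probes passed on its own (-0.55 and -0.12), and the call ended without control replicate 2 (adjusted p = 0.0555) or poly I:C replicate 2 (0.089).

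Gstk1, the kappa-class enzyme of mitochondria and peroxisomes, had values of -0.05 and -0.47 with poly I:C, -0.02 and 0.02 with PAM and 0.88 and 0.91 in controls. Both ligands lay below control, by -1.15 ± 0.12 with poly I:C (adjusted p = 7.85e-05) and -0.89 ± 0.12 with PAM (adjusted p = 0.000485). The ligands did not pass against each other (-0.26 ± 0.12, adjusted p = 0.163), except without poly I:C replicate 1 (-0.47, adjusted p = 0.00607). Gstt3, of the theta class, had values of -0.03 and 0.03 with poly I:C, -0.18 and -0.11 with PAM and 0.30 and 0.42 in controls, and fell with both (-0.36 ± 0.07 and -0.50 ± 0.07, adjusted p = 0.00432 and 0.000724).

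The microsomal transferases, membrane enzymes of a separate family, each took a different course. Mgst1 stood at -0.72 and -0.75 with poly I:C, 0.36 and 0.34 with PAM and -0.05 and 0.05 in controls, so it fell with poly I:C (-0.74 ± 0.07, adjusted p = 3.36e-05) and rose with PAM (0.35 ± 0.07, adjusted p = 0.00418). Mgst2 was low in controls, with 0.31 and 0.22 for poly I:C, 0.01 and -0.01 for PAM and -0.97 and -0.87 for control arrays. It rose with both, 2.27-fold with poly I:C (adjusted p = 1.94e-06) and 1.89-fold with PAM (adjusted p = 1.16e-05). Mgst3 was high in controls, with -0.22 and -0.12 for poly I:C, 0.12 and -0.19 for PAM and 0.93 and 0.91 for control arrays. It fell with both, 2.12-fold with poly I:C (adjusted p = 3.52e-05) and 1.94-fold with PAM (adjusted p = 9.82e-05). Mgst2 was also higher under poly I:C than under PAM (0.26 ± 0.07, adjusted p = 0.0196), a call that ended without poly I:C replicate 1 (adjusted p = 0.131), PAM replicate 1 (0.0779) or PAM replicate 2 (0.111).

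**Figure D3:**
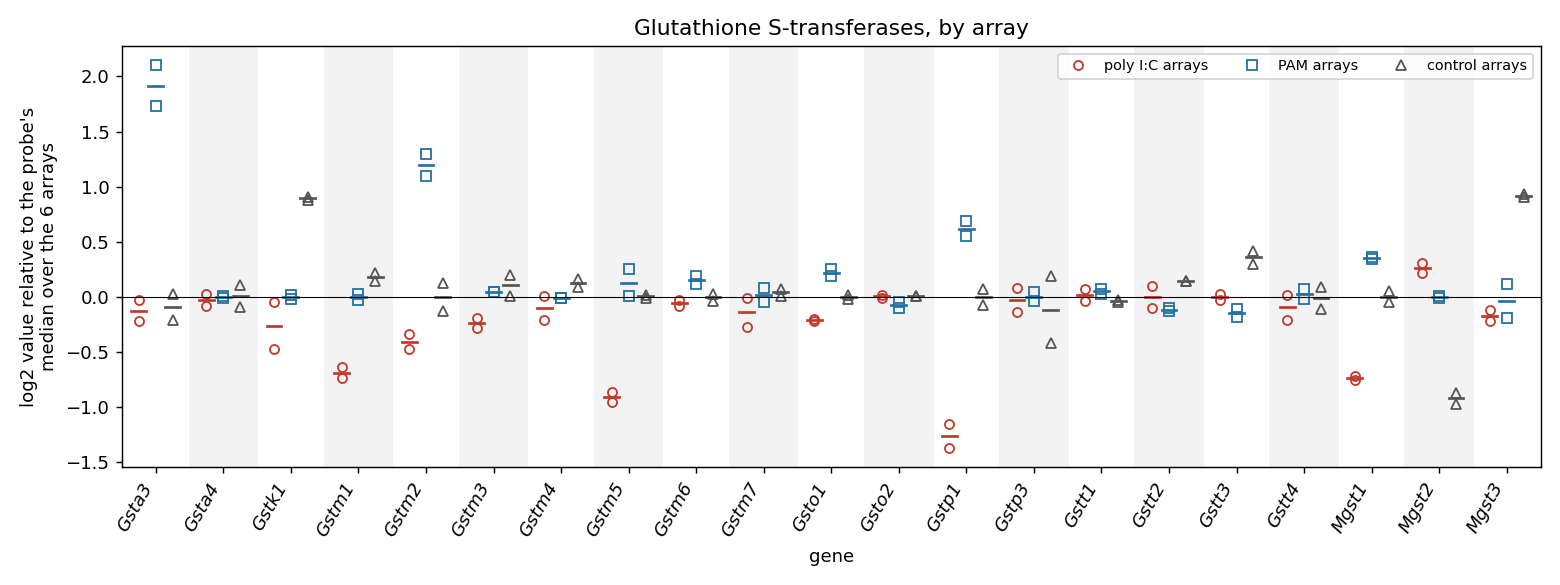
Log2 value relative to the probe's median over the 6 arrays (y axis) for 21 transferase genes (x axis), with 1 point per array and a bar at each group mean, poly I:C left, PAM in the middle and control right within each gene. Gstp1 lies lowest on the poly I:C arrays (-1.15 and -1.37), Gsta3 and Gstm2 are high on the PAM arrays, and controls stand apart from both ligands for Gstk1, Mgst2 and Mgst3.

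Of the 8 glutathione peroxidase genes 3 fell with poly I:C and 2 with PAM, and 0 rose with either by limma (0 also at an unadjusted p under 0.05). These shares, 37.5% and 25.0%, are near the 30.4% and 25.0% of all genes called. Gpx1, the main cytosolic enzyme, had values of 0.03 and -0.03 on the poly I:C arrays, -0.69 and -0.68 on the PAM arrays and 0.36 and 0.48 on the control arrays. In contrast to most members it was lowest with PAM (-1.11 ± 0.07, 2.16-fold, adjusted p = 3.35e-06), and fell less with poly I:C (-0.42 ± 0.07, adjusted p = 0.00132). Directly compared, Gpx1 was higher under poly I:C than under PAM (0.69 ± 0.07, adjusted p = 6.44e-05). Gpx3, the secreted enzyme, fell with both (-0.38 and -0.41). Gpx4, which reduces lipid peroxides, fell by 0.21 with poly I:C (adjusted p = 0.0327), a call that ended without any 1 of the 6 arrays (adjusted p from 0.0553 to 0.142). The other 5 genes, Gpx2 and Gpx5 to Gpx8, did not pass in any comparison, and none of these 5 reached 8 on all arrays. Gpx2 did pass with PAM without control replicate 2 (-0.39, adjusted p = 0.00521) and in the direct comparison without either control array (0.26, adjusted p = 0.0111).

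Peroxiredoxins are thiol enzymes that reduce peroxides, and the 5 members of this family included a pseudogene, Prdx6-ps2, which rose with each ligand. Of the 5, 3 rose and 1 fell with poly I:C, and 3 rose and 0 fell with PAM by limma (0 also at an unadjusted p under 0.05). Called shares were 80% and 60%, against 30.4% and 25.0% of all genes. Prdx2 had values of 0.29 and 0.43 with poly I:C, 0.00 and 0.00 with PAM and -0.25 and -0.18 in controls. Prdx4, which works in the endoplasmic reticulum, had 0.44 and 0.47 with poly I:C, -0.03 and -0.11 with PAM and -0.18 and 0.03 in controls. In both the poly I:C arrays were highest, and both rose with poly I:C (0.57 ± 0.07 and 0.53 ± 0.08, adjusted p = 0.000272 and 0.000951). Their PAM differences of 0.21 ± 0.07 and 0.01 ± 0.08 did not pass (adjusted p = 0.0643 and 0.972). For Prdx2, 1 of its 2 probes did pass with PAM (0.31, adjusted p = 0.0128) and the other did not (0.12, adjusted p = 0.43). The gene also passed with PAM when only genes at 8 or above were tested (adjusted p = 0.00896). Both genes were higher under poly I:C than under PAM (0.36 and 0.52, adjusted p = 0.00446 and 0.00106).

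Prdx3, the mitochondrial peroxiredoxin, had values of -0.39 and -0.41 with poly I:C, 0.27 and 0.27 with PAM and -0.09 and 0.09 in controls. It fell with poly I:C (-0.40 ± 0.08, adjusted p = 0.00323) and rose with PAM (0.27 ± 0.08, adjusted p = 0.0291). The rise with PAM was 0.18 without control replicate 1 (adjusted p = 0.128), and it ended also without poly I:C replicate 1 or 2 (adjusted p = 0.0554 each), PAM replicate 1 (0.131) or PAM replicate 2 (0.115). Prdx1, the abundant cytosolic form, rose with PAM (0.42 ± 0.08, adjusted p = 0.00406) on each of its 2 probes (0.39 and 0.45). The pseudogene Prdx6-ps2, whose probe may read the parent gene, had values of -0.01 and 0.01 with poly I:C, 0.37 and 0.26 with PAM and -0.26 and -0.22 in controls. It rose with PAM (0.56 ± 0.07, adjusted p = 0.000302) and with poly I:C (0.24 ± 0.07, adjusted p = 0.0266), and the poly I:C call ended without either control array or either poly I:C array (adjusted p from 0.0519 to 0.132).

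**Figure D4:**
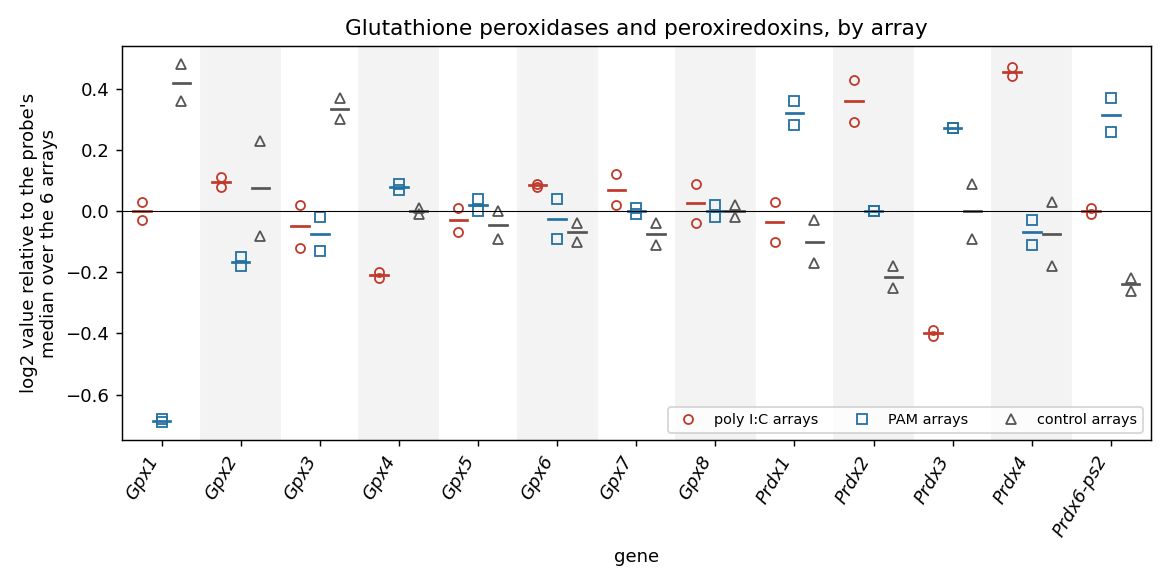
Log2 value relative to the probe's median over the 6 arrays (y axis) for 13 glutathione peroxidase and peroxiredoxin genes (x axis), with 1 point per array and a bar at each group mean, poly I:C left, PAM in the middle and control right within each gene. Gpx1 is lowest on the PAM arrays (-0.69 and -0.68), and Prdx2 and Prdx4 are highest on the poly I:C arrays.

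The remaining 19 members, those under 0.5 in every comparison in which they passed, held 4 lower genes with poly I:C (Gpx3, Gpx4, Gstm3 and Gsto1). With PAM 2 were higher (Gsto1 and Prdx1) and 2 lower (Gpx3 and Gstt2). The called share, 21.1% with each ligand, was below the 30.4% and 25.0% of all genes. Gsto1, an omega-class transferase, differed by -0.21 with poly I:C and 0.22 with PAM (adjusted p = 0.0345 and 0.0378). The PAM call ended without any 1 array (adjusted p from 0.0579 to 0.217), and the poly I:C call in every such fit but the one without control replicate 1. The fall of Gstt2 with PAM (-0.26) ended without either control or either PAM array (adjusted p from 0.0834 to 0.175). Compared directly, Gpx4, Gstm3, Gstm6, Gsto1 and Prdx1 were lower under poly I:C than under PAM, by between 0.21 and 0.43. The Gsto1 call held in every fit that left out an array, and each of the other 4 ended in at least one. In all, 12 members passed in none of the 3 comparisons, among them Gsta4, Gsto2, Gstp3, Gstt1 and Gstt4. Of these 12 only Gstm4 reached 8 on all arrays, and the share of all genes that passed in none was not counted. Without control replicate 1 Gstp3 was higher with each ligand (0.39 with poly I:C and 0.42 with PAM, adjusted p = 0.0147 and 0.0135), and without poly I:C replicate 1 Gstm4 was lower with poly I:C (-0.33, adjusted p = 0.0251), as it was when only genes at 8 or above were tested (-0.22, adjusted p = 0.00972).

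Genes around the pathway were read from 9 lists outside the members. Over all genes 30.4% were called with poly I:C, 25.0% with PAM and 28.7% in the direct comparison. Among genes at 8 or above on all arrays these shares were 55.8%, 46.8% and 54.5%. The called share of each list is given below in the same order. NADPH, which Gsr and Txnrd1 consume, was represented by a list of 11 supply genes, of which 10 were measured. G6pdx, the remaining one, had no single-symbol probe under that name. Of the 10 measured genes 7 fell and 1 rose with poly I:C. Idh1 (-1.45) and Idh2 (-1.28), isocitrate dehydrogenases, and Nnt (-1.06), a mitochondrial transhydrogenase, fell most, and Nadk, which makes NADP, rose (0.69). With PAM 4 rose, led by Nadk (0.82), H6pd (0.82) and Me1 (0.77), and Idh1 fell (-0.62). Compared directly, 9 of the 10 were lower under poly I:C than under PAM, Idh2 most (-1.28), with a list median of -0.81. Called shares of this list were 80%, 50% and 90%.

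Other NRF2 targets and haem and iron genes numbered 16. With poly I:C 10 fell, among them Ephx1 (-1.95), an epoxide hydrolase, Slc40a1 (-1.36), the iron exporter, and Slc48a1 (-0.96), a haem transporter, and 2 rose, Sqstm1 (0.94) and Hmox2 (0.56). With PAM 7 rose, among them the glutathione conjugate pump Abcc1 (1.36), Abcc4 (1.17) and the biliverdin reductase gene Blvrb (0.91), and 4 fell, among them Ephx1 (-1.66), Slc40a1 (-1.25) and Blvra (-0.67). Directly, 7 were lower under poly I:C than under PAM, Abcc1 most (-2.04), and 1 was higher (Hmox2, 0.78). Called shares were 75%, 68.8% and 50%.

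Partners and repressors of NRF2 numbered 10. Bach1, a repressor that competes for the same elements, fell with poly I:C (-0.41) and with PAM (-1.15), and was higher under poly I:C than under PAM (0.75 ± 0.07, adjusted p = 4.77e-05). Of the small MAF genes, Maff (1.71) and Mafg (0.87) rose and Mafk fell (-0.42) with PAM, whereas Mafk rose with poly I:C (0.85). Nfe2l1, which encodes a relative of NRF2, rose with both (0.81 and 0.95). In counts, 2 rose and 1 fell with poly I:C, 3 rose and 3 fell with PAM, and 3 were higher and 3 lower under poly I:C than under PAM. These calls made up 30%, 60% and 60% of the list, against 30.4%, 25.0% and 28.7% of all genes. The poly I:C share was thus near that of all genes.

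Of 11 measured superoxide production and disposal genes 7 rose with poly I:C and 7 with PAM, and 0 fell by limma (1 with poly I:C and 0 with PAM at an unadjusted p under 0.05). Called shares were 63.6%, 63.6% and 72.7%. Sod2, the mitochondrial dismutase, rose by 1.95 with poly I:C and 2.68 with PAM, in contrast to Sod1. Nos2, a nitric oxide synthase gene that the list also holds, rose by 4.40 and 1.14 and is counted among the 7 with each ligand. The oxidase subunit genes Ncf4 (0.78 with poly I:C) and Ncf1 (1.04 with PAM) were among those that rose. Directly, 4 were higher under poly I:C than under PAM, Nos2 most (3.26), and 4 lower, Rac2 most (-0.91). The 4 higher were 2 without poly I:C replicate 1 or 2 or PAM replicate 1 or 2. Metallothioneins, metal-binding proteins, numbered 4: Mt2 and Mt1 fell with poly I:C (-2.28 and -1.77), and with PAM Mt2 rose (0.54) while Mt3 and Mt1 fell (-0.34 and -0.25). Mt2 and Mt1 were also the 2 that were lower under poly I:C than under PAM (-2.81 and -1.52). Called shares of the metallothioneins were 50%, 75% and 50%. With PAM 0 metallothioneins rose by limma without PAM replicate 1. The 2 falls with PAM were 1 without control replicate 2 or poly I:C replicate 1 or 2, and 0 without PAM replicate 2.

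Thioredoxin and glutaredoxin partners, 15 genes, held 5 higher and 6 lower with poly I:C, and 3 higher and 7 lower with PAM. Glrx, a glutaredoxin, rose with both (0.84 and 1.86), Sesn2 rose with both (1.01 and 0.45) and Sesn1 fell with both (-3.17 and -2.20), as did Txnip (-0.76 and -1.19), an inhibitor of thioredoxin. Directly 6 were higher, led by Msrb2 (0.94), and 6 lower, led by Glrx (-1.02). Called shares of these partners were 73.3%, 66.7% and 80%. In the list of glutathione precursor supply and breakdown, 16 measured genes, 6 rose and 2 fell with each ligand, and directly 5 were higher and 2 lower. Called shares of this list were 50%, 50% and 43.8%. Slc3a2, the heavy chain that pairs with Slc7a11, rose with poly I:C (0.71) and with PAM (0.41), and the amino acid transporter gene Slc7a5 with both (1.17 and 1.24). Lap3 rose with poly I:C (1.14), Slc1a5 fell (-0.49), Cth, which makes cysteine, rose with PAM (0.67), and Anpep fell with it (-0.94). The 2 falls with poly I:C were 1 without control replicate 1 or 2 or poly I:C replicate 1.

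Other glutathione-using, GST-fold and MAPEG genes, 13 measured, held 3 higher and 7 lower genes with poly I:C, and 3 higher and 2 lower with PAM. Ptges, the prostaglandin E synthase, rose with both (3.51 and 4.78) and Hpgds, the prostaglandin D synthase, fell with both (-1.23 and -3.55), as did Alox5ap (-1.12 and -0.50). Glo1, which removes methylglyoxal with glutathione, fell with poly I:C (-1.11). Directly 3 were higher, Hpgds most (2.32), and 7 lower, Ptges most (-1.27). Called shares were 76.9%, 38.5% and 76.9%. The 2 falls with PAM were 4 without control replicate 2, and the 7 lower genes of the direct comparison were 4 without poly I:C replicate 2.

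Of 12 endoplasmic reticulum stress and ATF4 target genes 7 rose and 2 fell with poly I:C, and 9 rose and 1 fell with PAM. Trib3 (2.15), Ddit3 (2.05) and Asns (1.69) led with poly I:C, Asns (1.70), Herpud1 (1.20) and Phgdh (1.14) with PAM, and Atf3 fell with PAM (-1.25). Directly 4 were higher, Ddit3 most (2.24), and 2 lower, Herpud1 (-1.79) and Hspa5 (-0.61). Called shares were 75%, 83.3% and 50%. The 2 falls with poly I:C were 1 without any single array, and the 1 fall with PAM was 2 without control replicate 1.

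**Figure D5:**
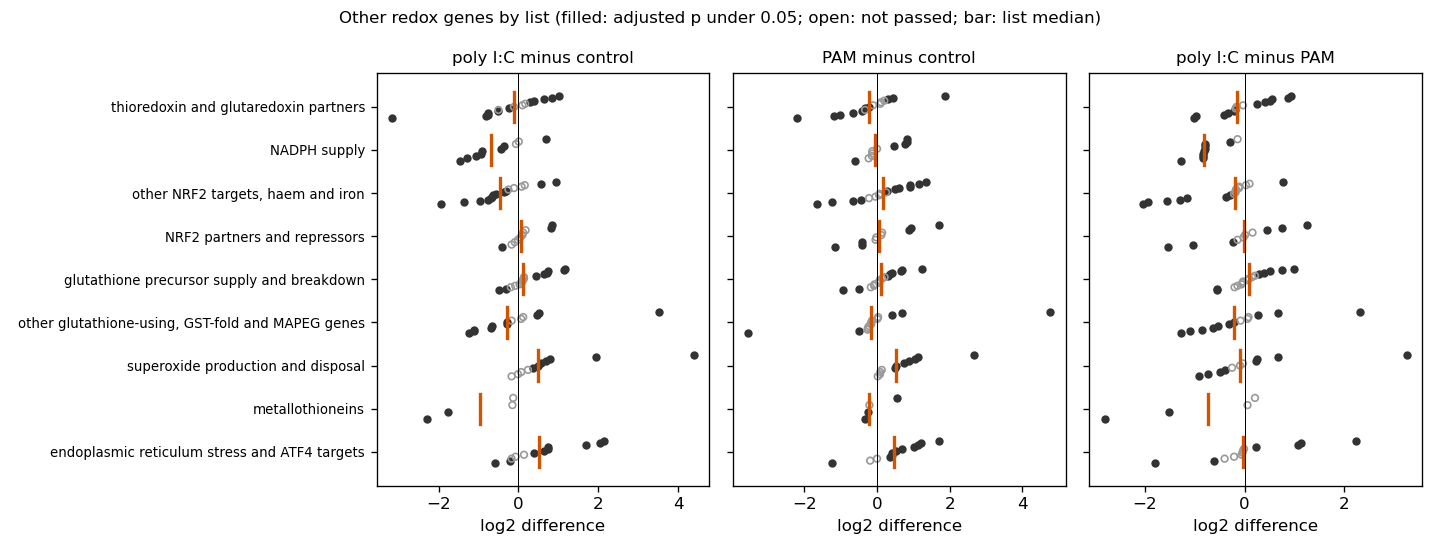
Log2 differences (x axes, each panel with its own range) of the genes of 9 lists (rows), for poly I:C minus control, PAM minus control and poly I:C minus PAM; filled points passed an adjusted p of 0.05, open ones did not, and the orange bar is the list median. In the direct comparison 9 of the 10 NADPH supply genes are filled and lie left of 0, with a median of -0.81.

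Some markers of macrophages and of other cells also differed between the groups. Of the macrophage markers 70% were called with poly I:C and 80% with PAM. Over all genes these shares were 30.4% and 25.0%, and over genes at 8 or above on all arrays 55.8% and 46.8%. The shares were 36.4% and 36.4% for mesothelial and fibroblast, 50% and 66.7% for B cell and 20% and 30% for neutrophil markers. They were 11.1% and 11.1% for mast cell and eosinophil and 0% and 0% for T and NK cell markers. Erythroid and platelet markers had 0% and 50%. Of 10 macrophage markers 3 rose and 4 fell with poly I:C (range -1.49 to 2.65), and 4 rose and 4 fell with PAM (range -1.72 to 2.39). With poly I:C 4 of 11 mesothelial and fibroblast markers fell (range over the list -0.69 to 0.13), and with PAM Dcn rose (0.95) and 3 fell (range -0.45 to 0.95). Of 10 neutrophil markers 1 rose and 1 fell with poly I:C (range -0.32 to 0.72), and 2 rose, S100a8 (2.04) and Camp (0.64), and 1 fell with PAM (range -0.40 to 2.04). Of 6 B cell markers 2 rose and 1 fell with poly I:C (range -0.71 to 0.44), and 3 rose and 1 fell with PAM (range -0.83 to 0.62). Of the 9 mast cell and eosinophil markers only Siglecf passed, lower with poly I:C (-0.95) and with PAM (-1.21). The 8 T and NK cell markers lay between -0.10 and 0.22 with poly I:C and between -0.04 and 0.14 with PAM, and 0 passed in limma (1 with poly I:C and 0 with PAM at an unadjusted p under 0.05). The 4 erythroid and platelet markers lay between -0.14 and 0.05 with poly I:C and between -0.03 and 2.60 with PAM, where Pf4 (2.60) and Ppbp (0.30) rose. Compared directly, 90% of macrophage (range -3.68 to 4.37), 45.5% of mesothelial and fibroblast and 30% of neutrophil markers were called. The direct shares were 16.7% for B cell, 11.1% for mast cell and eosinophil, 0% for T and NK cell and 50% for erythroid and platelet markers. They compare with 28.7% of all genes and 54.5% of those at 8 or above. The part of such cells in the members' differences was not tested, and changes in the mix of cells and in RNA per cell cannot be told apart in these samples.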

How the data were processed

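Per the labels' protocols, RNA was converted to biotinylated cRNA and hybridized to an Affymetrix array. The authors deposited log values, taken here as log2, for 28815 probes on 6 arrays, with each probe's median over the arrays subtracted (the largest remaining probe median was 5.0e-07). How probe sets were summarized, background-corrected and normalized, and which log base was used, is not given in the sources used here. Array medians lay between -0.0049 and 0.0072. Signal over background is unknown, and the number of arrays limits the precision (median SE of a difference 0.07).

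Probes were named from the platform annotation. Those with 1 symbol (21780) were averaged per gene, and those with several (1605) or none (5430) left out. Of the 47 members 4 had 2 probes (Gpx4, Gstm3, Prdx1 and Prdx2). Gsta1, Gsta2 and Gstp2 lie only on shared probes, and Prdx5 and Prdx6 were not analysed here. A gene was taken as at 8 or above where all 6 values of its probes were whole multiples of the single-precision step at that level, within 0.1 of a step. This held for 92.6% of 216 ribosomal protein probes and 1.35% of 1035 olfactory receptor probes.

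One mean per group was fitted over all 6 arrays with limma 3.58.1 in R 4.3.3 (eBayes without trend, 3 residual and 5.68 prior degrees of freedom), with Benjamini-Hochberg adjustment over all genes. The fit was tested on simulated data. Members and lists were chosen with earlier results of these data known. Values in every array are given for the 13 genes named singly in the rule and for members past the threshold with a difference of at least 0.5. From each list up to 3 genes per comparison and direction with the largest called differences are named, and Slc3a2 was added after its values were seen.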

Additional observations from a re-analysis of the deposited data

Results flagged for a closer look

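Of the 47 members 10 passed against control in opposite directions, lower with poly I:C and higher with PAM, and also passed in the direct comparison of the ligands. Their poly I:C minus PAM differences were -2.31 for Gclm, -2.00 for Gsr, -1.88 for Gstp1, -1.65 for Cat, -1.60 for Gstm2, -1.21 for Txnrd1, -1.09 for Mgst1, -1.08 for Srxn1, -0.67 for Prdx3 and -0.43 for Gsto1. The reverse, higher with poly I:C and lower with PAM, was found for 0 members. Over all genes 18.2% were lower with poly I:C, 11.0% higher with PAM and 15.8% lower in the direct comparison. Neither joint pattern was counted over all genes, so whether it is particular to the members is not known. For Gstm2, Prdx3 and Gsto1 at least 1 of the calls against control ended when a single array was left out, while the direct difference kept its call in each such fit. Groups of 2 arrays were not examined for outlying arrays.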

How the results depend on the processing

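Of the comparisons of single members named with values, 1032 recomputed values kept their side of the threshold, and those past it also kept their direction. A further 23 lost the call, 4 gained it and 0 that passed in either fit were reversed. Changes of sign in differences that passed in neither fit were not counted. Calls in every one of 12 settings were kept by 5 of 6 higher and 17 of 22 lower members with poly I:C, by 16 of 18 and 5 of 6 with PAM, and by 4 of 5 and 19 of 24 in the direct comparison. Deviations of same-numbered arrays from their group means had correlations of -0.073, 0.155 and -0.01. Deviations within a group of 2 mirror each other, so these values cannot settle whether the replicate numbers pair the arrays. With a replicate block poly I:C gave 2412 higher and 3614 lower genes. Among members the block ended only the PAM call of Gsto1. A variance trend has little meaning on values centred per probe. With genes at 8 or above alone, poly I:C gave 1531 higher and 2354 lower genes, more than the 1271 and 1972 of these genes called among all genes. Members then called were 3 higher with poly I:C, 2 lower with PAM and 15 lower in the direct comparison, with 21 in place of 47 members tested. The filter also added calls for Gstm4 lower with poly I:C (adjusted p = 0.00972), Gstm1 lower with PAM (0.023) and Prdx2 higher with PAM (0.00896). List counts under that filter with poly I:C were 2 lower thioredoxin partners, 2 lower NRF2 partners, 2 higher glutathione precursor genes, 3 lower glutathione-using genes, 1 lower superoxide gene and 3 higher endoplasmic reticulum stress genes. With PAM they were 3 lower thioredoxin partners, 2 lower NADPH genes, 2 higher and 1 lower precursor genes, 4 lower glutathione-using genes, 1 lower metallothionein and 5 higher stress genes. In the direct comparison they were 3 higher thioredoxin partners, 3 higher precursor genes and 4 lower glutathione-using genes. With a difference of at least 0.5 required, poly I:C gave 1178 higher and 1610 lower genes, PAM gave 1057 and 1161, and the direct comparison 1223 and 1471, with 11 members lower with poly I:C and 3 higher directly. With the 4 arrays compared alone, 1 stress gene was lower with poly I:C and 1 metallothionein with PAM.

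Leaving out 1 array gave 1828 to 2839 genes lower with PAM, lowest without PAM replicate 1. Among lists it gave 1 to 2 lower precursor genes and 1 to 1 lower stress genes with poly I:C. With PAM it gave 2 to 4 lower glutathione-using genes, 0 to 1 higher and 0 to 2 lower metallothioneins by limma, and 1 to 2 lower stress genes. In the direct comparison it gave 4 to 7 lower glutathione-using genes, 2 to 4 higher superoxide genes and 0 to 1 higher metallothioneins by limma. For members it gave 5 to 6 higher and 18 to 21 lower with poly I:C, 16 to 17 and 5 to 6 with PAM, and 4 to 6 and 19 to 24 directly. A fit without 1 array leaves a lone array in a group, which is assumed to vary like the others. Where a cause is not given by fewer genes or arrays, the cause was not tested. With 2 arrays a group small differences could not be called reliably, and signal over background is unknown.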
